A study of Mus musculus with 12 samples.

Results

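A set of 10 genes of the B-lymphoid programme was followed in LSKs, the Lin- Sca-1+ c-Kit+ fraction of mouse bone marrow (BM) that holds the hematopoietic stem cells and multipotent progenitors. The 10 genes are Ebf1, Pax5, Lef1, Rag1, Rag2, Dntt, Il7r, Cd79a, Vpreb1 and Igll1. They were taken by gene symbol from a table of 53465 genes. Each symbol was found once, and all 10 genes passed the filter on low counts in every comparison.

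A B cell is made in steps. Multipotent progenitors that carry the receptor for interleukin-7 first switch on the transcription factors EBF1 and PAX5, while the RAG1 and RAG2 proteins together cut immunoglobulin gene segments and terminal deoxynucleotidyl transferase (TdT, the product of Dntt) adds nucleotides at the joints. The rearranged heavy chain is then tested at the cell surface together with a surrogate light chain, made of the VPREB1 and IGLL1 (lambda 5) proteins, and with the CD79A signalling chain. In BM, TdT and RAG1 are also made by lymphoid-primed progenitors that are not yet committed to the B lineage.

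RNA-seq was available for 12 libraries in 4 groups of 3. Untreated LSKs came from wild type (Tespa1+/+) littermates and from Tespa1-/- mice, a germline knockout of Tespa1 (thymocyte-expressed, positive selection-associated 1), and LSKs were also taken from both genotypes at day 9 after 1 intraperitoneal dose of 150 mg/kg 5-fluorouracil (5-FU), a drug that kills cycling cells. The mice were males of 8 to 10 weeks, of the line B6.129S-Tespa1tm1Smoc crossed back to C57BL/6 for more than 6 generations. LSKs were sorted by flow cytometry after depletion of lineage-positive cells, with a lineage cocktail against CD3e, CD11b, Gr-1, B220 and Ter-119, so cells with B220 at the surface were outside the gate. The labels call the cells hematopoietic stem cells, which is narrower than the gate. They do not say whether a library held 1 animal or a pool, so the p-values measure the spread between these libraries, which may be technical in part.

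The libraries held 22118154 to 28275079 counts each (median 23401715), and members had between 54 and 19137 counts in a library, far above the 3 counts taken as the detection limit. Levels are given in CPM, a gene's count scaled to library size, and on that scale the limit was 0.106 to 0.136 CPM. Tespa1 itself stood at 43.1 to 51.0 CPM in untreated Tespa1+/+, 34.5 to 34.9 CPM in untreated Tespa1-/-, 47.1 to 57.2 CPM in Tespa1+/+ after 5-FU and 17.2 to 20.7 CPM in Tespa1-/- after 5-FU, so it was lower in every Tespa1-/- library but not absent from the counts. Of the genes that define the gate, Kit had mean levels of 340.4 to 466 CPM in the 4 groups. Ly6a, which encodes Sca-1, had means of 15.2 to 35.9 CPM. Flt3, a receptor of multipotent progenitors, had means of 615 and 493 CPM in untreated Tespa1+/+ and Tespa1-/-, and of 313 and 169 CPM after 5-FU. The defining genes of mature B cells were close to 0, with Ms4a1, Cr2 and Fcer2a at no more than 1.48, 0.355 and 0.501 CPM in any library, and the T cell gene Cd3e did not exceed 1.38 CPM. Markers of later neutrophils set 1 group apart. The summed level of 11 such genes was 0.769 to 1.96 CPM in untreated Tespa1+/+, 4.83 to 5.94 CPM in untreated Tespa1-/-, 3.66 to 8.98 CPM in Tespa1+/+ after 5-FU and 1077 to 1079.7 CPM in Tespa1-/- after 5-FU, and 11 of the 11 were called higher in the last group than in either group it was compared with. The part of these cells in the members' levels was not tested. In sorted bulk samples, more cells that express a gene and more RNA of that gene per cell cannot be told apart.

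The members sit at 8 places in the genome, given here on GRCm38 as the deposited table lists them. Rag2 (chr2:101624718-101632529, plus strand) and Rag1 (chr2:101638282-101649501, minus strand) face each other with 5752 bases between their ends, and Igll1 (chr16:16860671-16863985) and Vpreb1 (chr16:16868402-16870843) follow each other on the minus strand with 4416 bases between them. Ebf1 lies at chr11:44617317-45008091 on the plus strand, Pax5 at chr4:44524757-44710487 on the minus strand, and Lef1 at chr3:131110471-131224356 on the plus strand. Dntt lies at chr19:41029275-41059523 on the plus strand, Il7r at chr15:9505788-9530176 on the minus strand, and Cd79a at chr7:24897381-24902197 on the plus strand. The gene B230118H07Rik covers all of Rag1 on the same strand and all of Rag2 on the opposite one, with 165 to 391 counts a library, and Vpreb1 shares 108 bases with Top3b on the opposite strand. Predicted genes also overlap parts of Ebf1, Lef1 and Pax5. How the counting treated such overlaps is not given in the sources used here. Vpreb1 has a close copy, Vpreb2, so reads may have been split between them and the values of Vpreb1 are uncertain to that extent.

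The 250 bases before the RefSeq start of these 2 pairs of neighbours are shown because both pairs are adjacent genes whose products work together, and the levels of the first pair moved apart while those of the second moved alike. The sequences are those of RefSeq for GRCm38.p6, written 5′ to 3′ on the strand of the gene, for Rag1 at chr2:101649533-101649782 (minus), Rag2 at chr2:101624462-101624711 (plus), Igll1 at chr16:16863986-16864235 (minus) and Vpreb1 at chr16:16869256-16869505 (minus), with matches to the E-box CAGNTG, read on both strands, in capitals.
Rag1: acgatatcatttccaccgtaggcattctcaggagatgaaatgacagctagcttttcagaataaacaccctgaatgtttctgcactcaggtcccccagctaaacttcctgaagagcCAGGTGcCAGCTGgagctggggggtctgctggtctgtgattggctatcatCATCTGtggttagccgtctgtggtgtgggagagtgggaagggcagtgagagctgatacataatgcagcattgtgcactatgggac
Rag2: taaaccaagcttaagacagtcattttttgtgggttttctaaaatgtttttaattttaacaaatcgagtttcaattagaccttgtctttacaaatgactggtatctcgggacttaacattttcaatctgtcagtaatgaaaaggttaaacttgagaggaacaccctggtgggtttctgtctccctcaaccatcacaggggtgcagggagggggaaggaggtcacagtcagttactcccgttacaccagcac
Igll1: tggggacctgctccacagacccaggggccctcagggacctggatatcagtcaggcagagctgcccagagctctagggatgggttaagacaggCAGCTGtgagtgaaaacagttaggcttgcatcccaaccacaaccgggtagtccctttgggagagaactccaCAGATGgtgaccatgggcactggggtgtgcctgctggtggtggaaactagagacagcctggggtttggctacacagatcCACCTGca
Vpreb1: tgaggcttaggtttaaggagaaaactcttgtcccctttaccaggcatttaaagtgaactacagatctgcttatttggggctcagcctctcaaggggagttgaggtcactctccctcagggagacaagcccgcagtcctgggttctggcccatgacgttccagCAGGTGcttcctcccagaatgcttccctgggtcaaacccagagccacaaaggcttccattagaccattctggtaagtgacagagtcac
The E-box is the sequence bound by E2A, the product of Tcf3, a factor that acts upstream of EBF1. It occurs 3 times before Rag1, 3 times before Igll1 and 1 time before Vpreb1, and these letters are not in the window of Rag2. Over the 14 windows of the 10 members, 6 hold a match, against 44.8% of the 32851 windows in the table, so the members do not stand out by this measure. The EBF motif (TCCC, any pair of bases, then GGGA), which reads the same on both strands, is in none of the 14 windows and in 0.779% of all windows. The bases before Rag2 hold 41.2% G and C and those before Rag1 50.8%, with 58.0% for Igll1, 52.0% for Vpreb1 and a median of 52.4% over all windows.

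**Figure D1:**
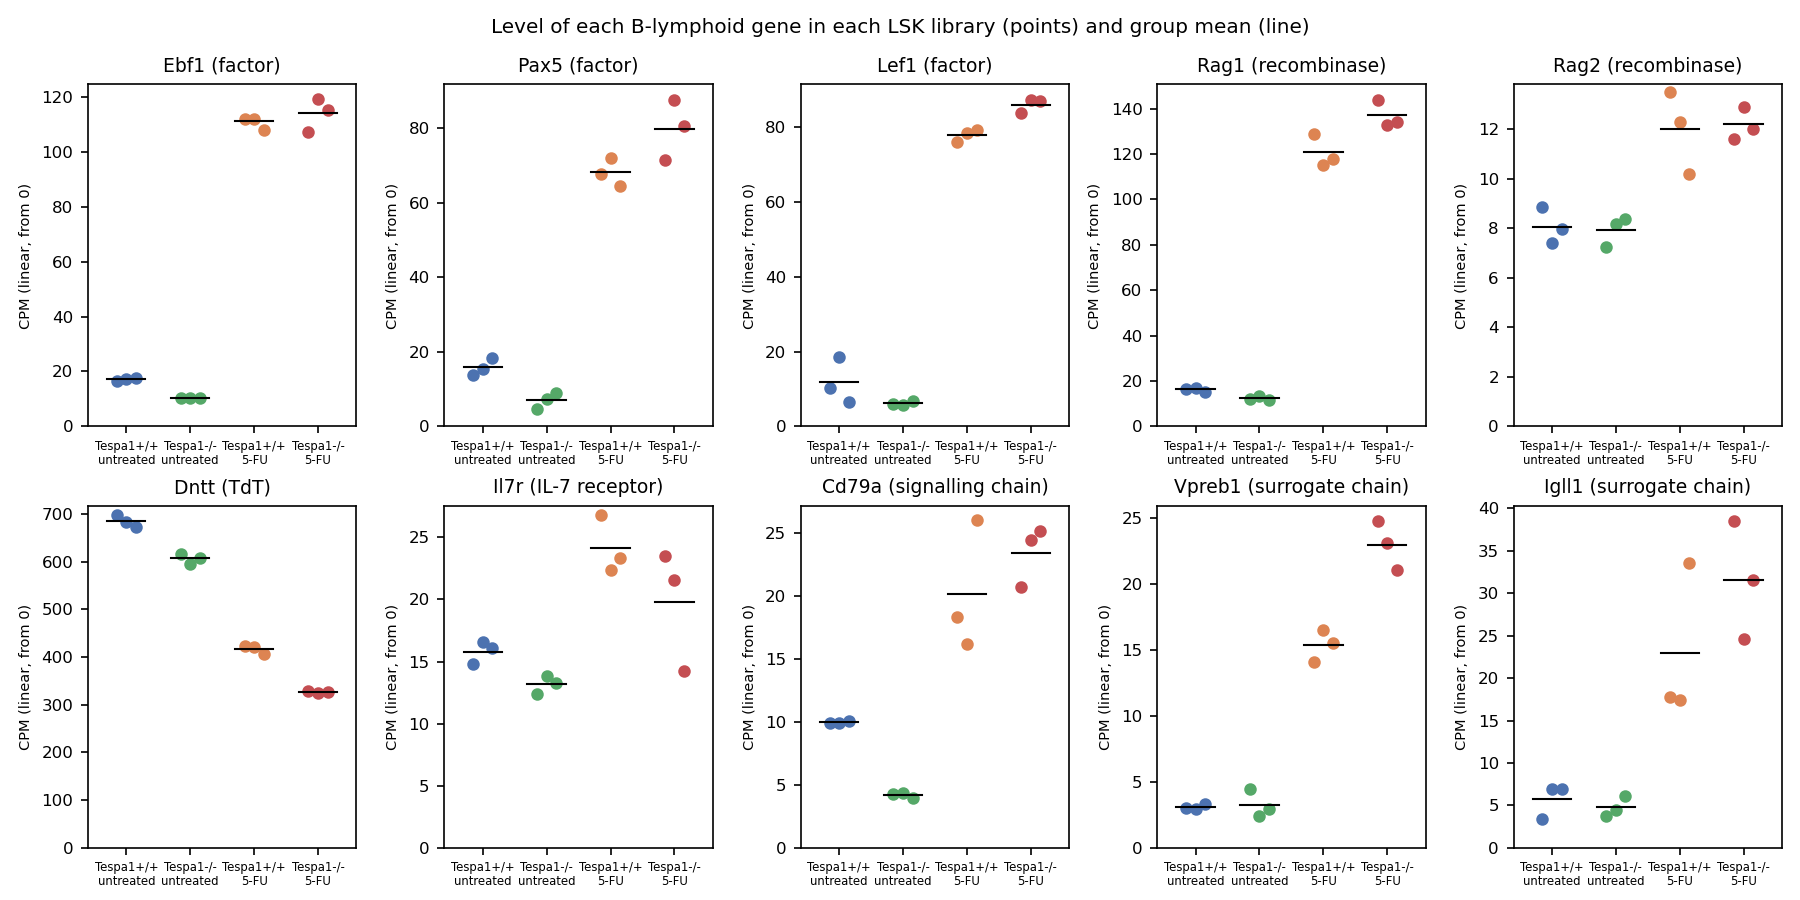
Level of each of the 10 genes in CPM (counts scaled to library size, linear axes from 0) in the 12 libraries; points are libraries, lines are means of 3 libraries, and colours mark the 4 groups. The 9 genes other than Dntt were higher in all 6 libraries after 5-FU than in the untreated libraries of the same genotype, and Dntt was lower.

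The first question was how the programme responded to 5-FU. By day 9, 8 members had risen and Dntt had fallen in each genotype, by edgeR's quasi-likelihood test at a Benjamini-Hochberg adjusted p below 0.05. The 8 included Il7r but not Rag2 in Tespa1+/+, and Rag2 but not Il7r in Tespa1-/-. In Tespa1+/+ the rise of 8 of 10 members compares with 3.77% of the 17002 genes tested that were called higher, and the fall of 1 of 10 with 4.18% called lower. In Tespa1-/- the same counts of 8 and 1 compare with 10.7% and 8.64% of 17228 genes. The median log2 fold change of the members was 2.06 in Tespa1+/+ and 2.76 in Tespa1-/-, where the median of all genes tested was 0.01 and -0.01. In both genotypes 9 members were higher in every library after 5-FU than in every untreated one and 1 was lower, where groups stood apart in those directions for 12.6% and 14.5% of 18687 genes in Tespa1+/+ and for 18.6% and 18.7% in Tespa1-/-. Summed over the 9 members other than Dntt, the level went from 104 ± 7.66 to 472 ± 8.57 CPM (mean ± SD, n = 3) in Tespa1+/+ and from 69.3 ± 3.69 to 526 ± 6.05 CPM in Tespa1-/-.

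The transcription factors gave some of the largest rises. Ebf1 encodes the factor that opens B lineage genes. It stood at 16.5, 17.3 and 17.7 CPM in untreated Tespa1+/+, and at 112, 112 and 108 CPM after 5-FU. In Tespa1-/- it went from 10.2, 10.5 and 10.5 CPM to 107, 119 and 115 CPM. The libraries of a group lay close together, and the 2 groups after 5-FU overlapped with each other but not with any untreated library. The rise was 6.45-fold in Tespa1+/+ (log2 2.70 ± 0.09 SE, adjusted p = 9.12e-07 by edgeR's quasi-likelihood test) and 10.9-fold in Tespa1-/- (log2 3.44 ± 0.08, adjusted p = 3.94e-08).

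Pax5, whose product commits cells to the B lineage, was at 13.9, 15.4 and 18.3 CPM in untreated Tespa1+/+ and at 67.7, 71.9 and 64.5 CPM after 5-FU. The Tespa1-/- libraries held 4.79, 7.40 and 8.96 CPM untreated and 71.5, 87.5 and 80.5 CPM after 5-FU. Relative to the mean, the spread was widest in untreated Tespa1-/-, but treated and untreated libraries were far apart. The rise was 4.28-fold in Tespa1+/+ (log2 2.12 ± 0.13, adjusted p = 2.71e-05 in edgeR) and 11.3-fold in Tespa1-/- (log2 3.50 ± 0.20, adjusted p = 8.34e-06).

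Lef1 encodes a factor of the Wnt pathway that is made in pro-B and T-lineage cells. Its untreated Tespa1+/+ libraries held 10.2, 18.6 and 6.65 CPM, and the treated ones 75.9, 78.3 and 79.3 CPM. In Tespa1-/- the level was 5.93, 5.67 and 6.86 CPM before and 83.8, 87.3 and 87.1 CPM after treatment. Untreated Tespa1+/+ replicate 2 was high for this gene and replicate 3 lay among the untreated Tespa1-/- libraries, so this was the least even of the 4 groups for Lef1. The rise was 6.60-fold in Tespa1+/+ (log2 2.74 ± 0.30, adjusted p = 0.000729 in edgeR) and 14-fold in Tespa1-/- (log2 3.80 ± 0.10, adjusted p = 8.76e-08).

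The recombination genes did not move together. Rag1 was at 16.6, 17.1 and 15.3 CPM in untreated Tespa1+/+ and at 129, 115 and 118 CPM after 5-FU, and in Tespa1-/- it went from 12.1, 13.3 and 11.5 CPM to 144, 133 and 134 CPM. Each of the 4 groups stood clear of the other 3, in the order Tespa1-/- after 5-FU, Tespa1+/+ after 5-FU, untreated Tespa1+/+ and untreated Tespa1-/-. The rise was 7.39-fold in Tespa1+/+ (log2 2.90 ± 0.09, adjusted p = 9.12e-07 in edgeR) and 11.1-fold in Tespa1-/- (log2 3.47 ± 0.08, adjusted p = 4.66e-08). Rag2, its obligate partner in the recombinase, was at 8.86, 7.39 and 7.96 CPM in untreated Tespa1+/+ and at 13.5, 12.3 and 10.2 CPM after 5-FU. The Tespa1-/- values were 7.25, 8.16 and 8.39 CPM untreated and 11.6, 12.9 and 12 CPM treated. All treated libraries were above all untreated ones, but by a small step of 1.49-fold in Tespa1+/+ (log2 0.59 ± 0.20, adjusted p = 0.112 in edgeR, not called) and 1.54-fold in Tespa1-/- (log2 0.61 ± 0.15, adjusted p = 0.0212). The call in Tespa1-/- was lost in 4 of 6 fits without 1 library.

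Dntt moved the other way. It held 698, 684 and 672 CPM in untreated Tespa1+/+ and 424, 422 and 406 CPM after 5-FU. In Tespa1-/- it fell from 617, 596 and 607 CPM to 329, 325 and 326 CPM. The 4 groups did not overlap anywhere, and the order was untreated Tespa1+/+, untreated Tespa1-/-, Tespa1+/+ after 5-FU and Tespa1-/- after 5-FU. The treated level was 0.609 of the untreated one in Tespa1+/+ (log2 -0.70 ± 0.04, adjusted p = 1.95e-05 in edgeR) and 0.538 in Tespa1-/- (log2 -0.90 ± 0.03, adjusted p = 1.05e-06).

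Il7r, the receptor chain through which interleukin-7 keeps lymphoid progenitors alive, changed little. Its level was 14.8, 16.6 and 16.1 CPM in untreated Tespa1+/+ and 26.8, 22.4 and 23.3 CPM after 5-FU, and 12.4, 13.8 and 13.3 CPM in untreated Tespa1-/- and 23.5, 21.6 and 14.2 CPM after 5-FU. Replicate 3 of Tespa1-/- after 5-FU was low, below all untreated Tespa1+/+ libraries. The rise was 1.52-fold in Tespa1+/+ (log2 0.62 ± 0.14, adjusted p = 0.0310 in edgeR) and 1.5-fold in Tespa1-/- (log2 0.58 ± 0.19, adjusted p = 0.0670, not called). The call in Tespa1+/+ was lost in each of the 6 fits without 1 library, with adjusted p up to 0.11, and in Tespa1-/- the gene was called without replicate 3 of the treated group (adjusted p = 0.00931).

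Among the genes of the pre-B cell receptor, Cd79a encodes a signalling chain and is a known target of EBF1 and PAX5. It was at 9.89, 9.92 and 10.1 CPM in untreated Tespa1+/+ and at 18.3, 16.2 and 26.0 CPM after 5-FU. The Tespa1-/- libraries held 4.26, 4.34 and 3.93 CPM before and 20.7, 24.4 and 25.1 CPM after treatment. The 2 untreated groups were tight and apart, whereas the treated groups overlapped, with replicate 3 of Tespa1+/+ the highest of all. The rise was 2.02-fold in Tespa1+/+ (log2 1.03 ± 0.20, adjusted p = 0.0149 in edgeR) and 5.6-fold in Tespa1-/- (log2 2.48 ± 0.15, adjusted p = 1.28e-05). In Tespa1+/+ the call was lost in 3 of 6 fits without 1 library (untreated replicate 1, untreated replicate 2 or treated replicate 3), with adjusted p of 0.0501 to 0.0536.

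The surrogate light chain genes rose alike. Vpreb1 was at 3.06, 2.94 and 3.30 CPM in untreated Tespa1+/+ and at 14.1, 16.5 and 15.5 CPM after 5-FU, and in Tespa1-/- it went from 4.48, 2.39 and 2.93 CPM to 24.8, 23.1 and 21.1 CPM. Treated and untreated libraries were far apart, and the 2 treated groups did not overlap. The rise was 4.95-fold in Tespa1+/+ (log2 2.32 ± 0.20, adjusted p = 0.000169 in edgeR) and 7.04-fold in Tespa1-/- (log2 2.81 ± 0.23, adjusted p = 7.00e-05). Igll1 held 3.43, 6.99 and 6.92 CPM in untreated Tespa1+/+ and 17.8, 17.4 and 33.5 CPM after 5-FU. Its Tespa1-/- values were 3.78, 4.52 and 6.07 CPM and then 38.5, 24.6 and 31.6 CPM. Replicate 3 of Tespa1+/+ after 5-FU was high, and the genotypes overlapped under both conditions. The rise was 3.97-fold in Tespa1+/+ (log2 2.0 ± 0.35, adjusted p = 0.00836 in edgeR) and 6.59-fold in Tespa1-/- (log2 2.72 ± 0.23, adjusted p = 7.33e-05). Vpreb2, the close copy of Vpreb1, had means of 2.47 and 4.23 CPM in Tespa1+/+ and 0.969 and 6.71 CPM in Tespa1-/-, untreated and treated.

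**Figure D2:**
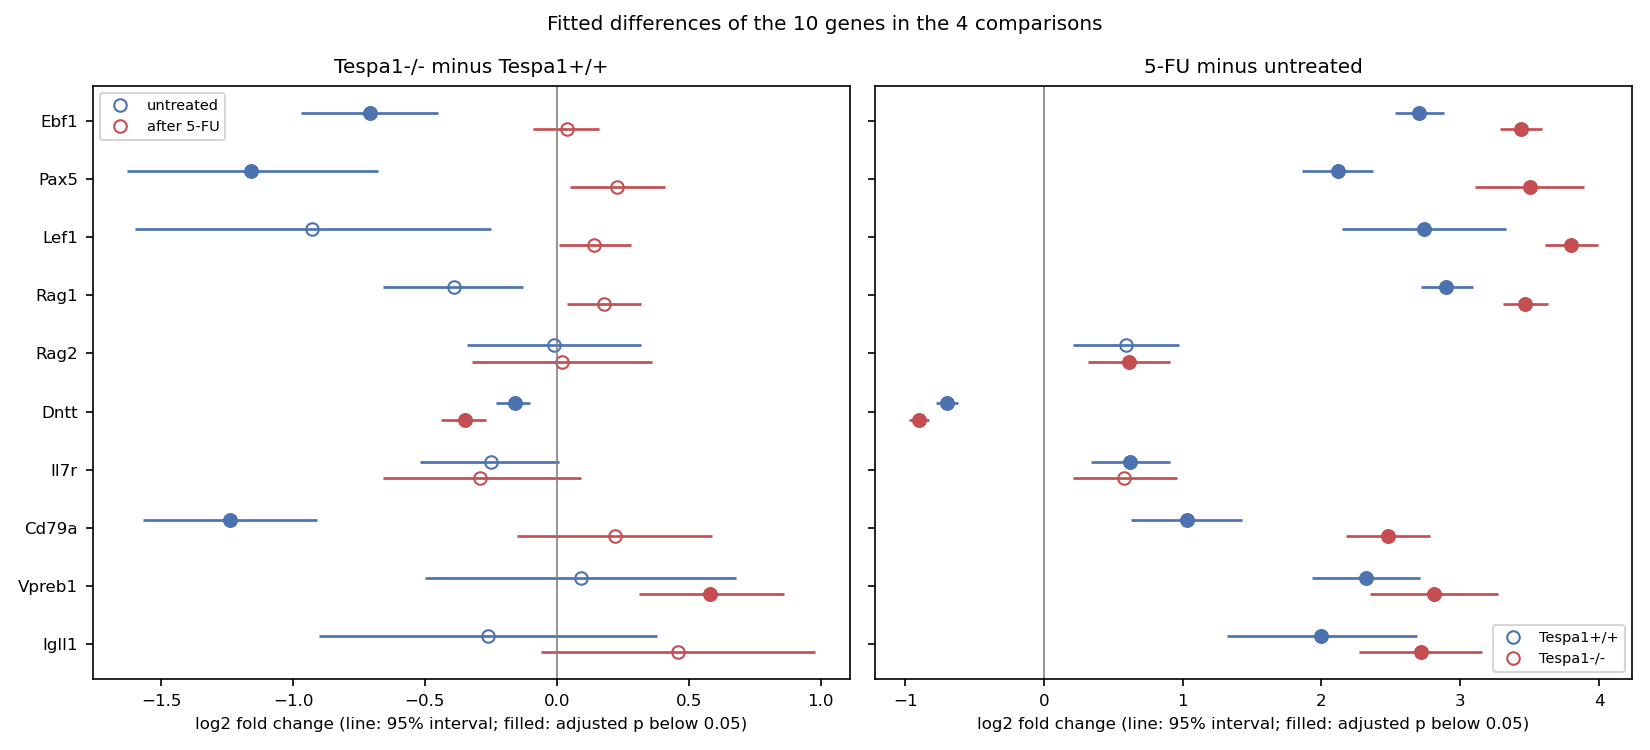
Fitted log2 fold changes of the 10 genes between genotypes (left) and between treatments (right); lines are 95% intervals, and filled points mark an adjusted p below 0.05. On the left the untreated differences of Ebf1, Pax5 and Cd79a lie below 0 and those after 5-FU near or above it, and on the right Dntt alone is negative.

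The second question was what loss of Tespa1 did to the programme in untreated LSKs. Ebf1, Pax5, Cd79a and Dntt were lower in Tespa1-/- and no member was higher. The 4 of 10 members called lower compare with 3.59% of 17055 genes tested, and the 0 called higher with 1.64%, and 0 members were higher also at an unadjusted p below 0.05 and in DESeq2, which called the same number lower. The median log2 difference of the members was -0.33, against 0.01 over all genes. The groups did not overlap for 6 members, with Rag1 and Il7r added to those 4, all of them lower in Tespa1-/-, against 13% of all genes in that direction and 11.8% in the other. Per library the values are those given above. Cd79a had the largest estimated difference, with means of 4.18 ± 0.217 and 9.97 ± 0.106 CPM (SD, n = 3) in Tespa1-/- and Tespa1+/+, a log2 difference of -1.24 ± 0.17 (adjusted p = 0.00469 by edgeR's quasi-likelihood test). Pax5 had means of 7.05 ± 2.11 and 15.9 ± 2.20 CPM (log2 -1.16 ± 0.24, adjusted p = 0.0308), and Ebf1 10.4 ± 0.157 and 17.2 ± 0.651 CPM (log2 -0.71 ± 0.13, adjusted p = 0.0193). The difference of Dntt was small and even, from 685 ± 13.1 to 607 ± 10.5 CPM (log2 -0.16 ± 0.03, adjusted p = 0.0278).

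The other 6 members were not called in untreated LSKs. Rag1 had a log2 difference of -0.39 with a 95% interval of -0.66 to -0.13 (adjusted p = 0.159 in edgeR), and Il7r one of -0.25 with an interval of -0.52 to 0.01. For Lef1 it was -0.93 with an interval of -1.60 to -0.25 (adjusted p = 0.193), and -0.43 without the high replicate 2 of Tespa1+/+. Rag2 gave -0.01 (-0.34 to 0.32), Vpreb1 0.09 (-0.50 to 0.68) and Igll1 -0.26 (-0.90 to 0.38), so for Igll1 a difference of the size seen in Ebf1 would not have been detectable. The count of 4 lower members rested on several libraries. It was 1 without Tespa1+/+ replicate 2, Tespa1-/- replicate 1 or Tespa1-/- replicate 2 and 2 without Tespa1-/- replicate 3, and Cd79a was called in all 6 such fits.

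After 5-FU the genotypes were close. Vpreb1 was called higher in Tespa1-/-, at 23.0 ± 1.85 against 15.4 ± 1.21 CPM (log2 0.58 ± 0.14, adjusted p = 0.0243 by edgeR's quasi-likelihood test), and Dntt lower, at 326 ± 2.11 against 417 ± 10.1 CPM (log2 -0.35 ± 0.04, adjusted p = 0.000700). The 1 of 10 members called higher and 1 called lower compare with 7.34% and 5.78% of 17239 genes, so the counts are near the background. The median log2 difference of the members was 0.16, against -0.01 over all genes. The groups did not overlap for Rag1, Lef1 and Vpreb1, which were higher in Tespa1-/-, and for Dntt, which was lower, against 16.1% and 15.3% of all genes. The call of Vpreb1 was lost without Tespa1+/+ replicate 1 or 3 or Tespa1-/- replicate 1 or 2, with adjusted p up to 0.0889, while Dntt was called in all 6 such fits.

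For the factors the intervals after 5-FU were narrow. The log2 difference of Ebf1 was 0.04 (95% interval -0.09 to 0.16), of Lef1 0.14 (0.01 to 0.28), of Rag1 0.18 (0.04 to 0.32) and of Pax5 0.23 (0.05 to 0.41), none of them called after adjustment over all genes. Rag2 gave 0.02 (-0.32 to 0.36) and Il7r -0.29 (-0.66 to 0.09). Cd79a and Igll1 were less settled, at 0.22 (-0.15 to 0.59) and 0.46 (-0.06 to 0.98). Without replicate 3 of Tespa1+/+, the high library for both genes, Igll1 was called higher in Tespa1-/- (log2 0.84, adjusted p = 0.0373 in edgeR).

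Whether the response to 5-FU differed between genotypes was tested as the interaction of genotype and treatment over the 12 libraries. The response was larger in Tespa1-/- for 4 members and lower for 1, against 3.02% and 1.99% of 18696 genes tested. The 4 were Cd79a (log2 1.46 ± 0.25, adjusted p = 0.00433 by edgeR's quasi-likelihood test), Pax5 (1.39 ± 0.25, adjusted p = 0.0049), Ebf1 (0.75 ± 0.10, adjusted p = 0.000728) and Rag1 (0.58 ± 0.11, adjusted p = 0.00921), and each was called in all 12 fits without 1 library. For these 4 genes the mean level in Tespa1-/- was below that of Tespa1+/+ before treatment and above it after 5-FU. Before treatment the lower level was called for Cd79a, Pax5 and Ebf1 but not for Rag1. After 5-FU the genotype difference was called for none of the 4. Dntt fell further in Tespa1-/- (log2 -0.19 ± 0.05, adjusted p = 0.0370), a call that held in 3 of the 12 fits. Lef1 (1.07 ± 0.35, adjusted p = 0.105), Igll1 (0.72 ± 0.45), Vpreb1 (0.50 ± 0.29), Rag2 (0.04 ± 0.23) and Il7r (-0.03 ± 0.24) were not called. The interaction uses the same libraries as the comparisons above and is not independent of them.

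Thresholds on the fold change, which the methods of the study also used, altered some of these counts. With an unadjusted P below 0.05 and a fold above 1.5, 0 members were higher and 4 lower in untreated Tespa1-/- (3.54% and 3.2% of all genes). The 4 lower members held Lef1 in place of Dntt. After 5-FU 0 were higher and 0 lower in Tespa1-/- (5.79% and 5.94%). By that rule 9 rose and 1 fell with 5-FU in Tespa1+/+ (6.33% and 3.54%), and 8 rose and 1 fell in Tespa1-/- (7.78% and 6.58%). The interaction gave 4 higher and 0 lower (4.16% and 6.22%), with Lef1 in place of Rag1. With an adjusted p below 0.05 and the same fold, the counts were 0 and 3 for untreated genotypes (0.973% and 1.54%), and 0 and 0 for genotypes after 5-FU (3.95% and 3.03%). They were 8 and 1 for 5-FU in Tespa1+/+ (2.74% and 1.69%), 8 and 1 in Tespa1-/- (6% and 4.07%), and 3 and 0 for the interaction (1.66% and 1.55%). The difference of Dntt, whose fold was small in each genotype comparison, is called only without a fold threshold.

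Levels can be compared between genes only per length, for which the deposited FPKM values (fragments scaled by transcript length and library size) were used. Dntt led in every group, at 315 ± 3.75 FPKM in untreated Tespa1+/+ and still 154 ± 1.21 FPKM in Tespa1-/- after 5-FU. In untreated Tespa1+/+ Cd79a was next at 6.70 FPKM, and the other 8 members lay between 1.25 (Lef1) and 2.96 FPKM (Il7r), many of them within each other's spread. In untreated Tespa1-/- the lowest levels were those of Lef1, Pax5 and Ebf1, at 0.662 ± 0.0641, 0.714 ± 0.212 and 0.883 ± 0.0122 FPKM. After 5-FU Rag1 stood next to Dntt, at 18.7 ± 1.09 FPKM in Tespa1+/+ and 20.8 ± 0.920 FPKM in Tespa1-/-, followed by Cd79a at 14.2 ± 3.65 and 16.1 ± 1.61 FPKM. Rag2 was then the lowest of the 10 in both genotypes, at 2.32 ± 0.307 and 2.31 ± 0.127 FPKM.

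**Figure D3:**
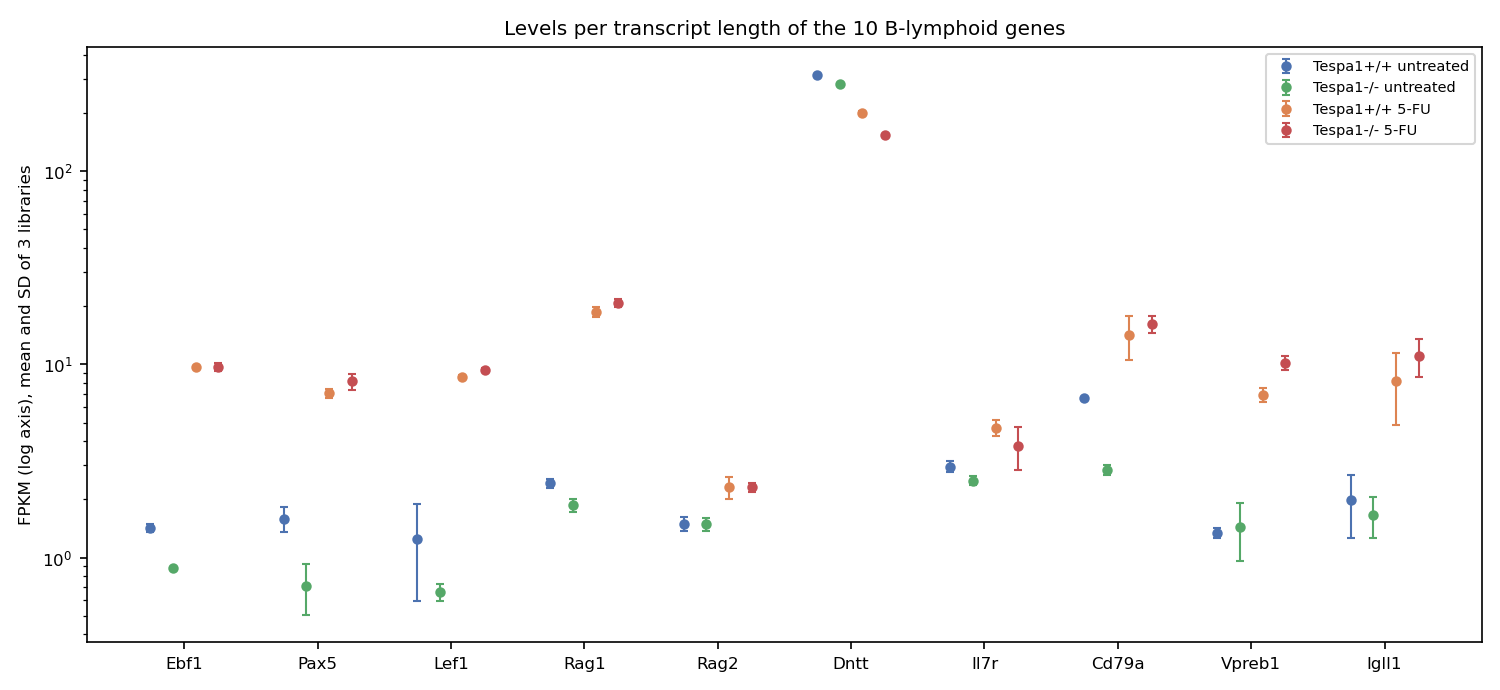
Mean FPKM and SD over 3 libraries of each of the 10 genes in the 4 groups, on a log axis. Dntt stands far above the other 9 genes in every group, and Rag1 moves from the middle of the range to next below Dntt after 5-FU while Rag2 stays low.

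Within a library, the ratio of 2 genes does not depend on the scaling of that library. The ratio of Rag1 to Rag2 was 1.5, 1.85 and 1.54 in untreated Tespa1+/+ and 7.68, 7.49 and 9.18 after 5-FU, and in Tespa1-/- it went from 1.34, 1.31 and 1.10 to 9.88, 8.19 and 8.97. Treated and untreated libraries did not overlap, and the mean ratio was 4.98 times higher after 5-FU in Tespa1+/+ and 7.22 times higher in Tespa1-/-. The ratio of Rag1 to Dntt rose from a mean of 0.00768 to 0.0932 in Tespa1+/+ and from 0.00655 to 0.135 in Tespa1-/-, a change of 12.1 and 20.6 times with no overlap. Cd79a over Pax5 fell from a mean of 4.28 to 2.02 in Tespa1+/+ and from 4.30 to 1.98 in Tespa1-/-, as Pax5 rose by the larger factor. Pax5 over Ebf1 went from a mean of 1.1 to 0.734 in Tespa1+/+ without overlap and from 0.807 to 0.838 in Tespa1-/- with overlap. Igll1 over Vpreb1 had means of 1.47, 1.27, 1.18 and 1.08 in untreated Tespa1+/+, untreated Tespa1-/-, treated Tespa1+/+ and treated Tespa1-/-, with libraries of all groups mixed. With 3 libraries against 3 the two-sided exact permutation test cannot go below p = 0.1, which treatment reached for the first 3 of these ratios in both genotypes (0.182 after Benjamini-Hochberg adjustment over 20 tests of 5 ratios), and for Igll1 over Vpreb1 the treatment gave p = 0.6 in both genotypes.

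**Figure D4:**
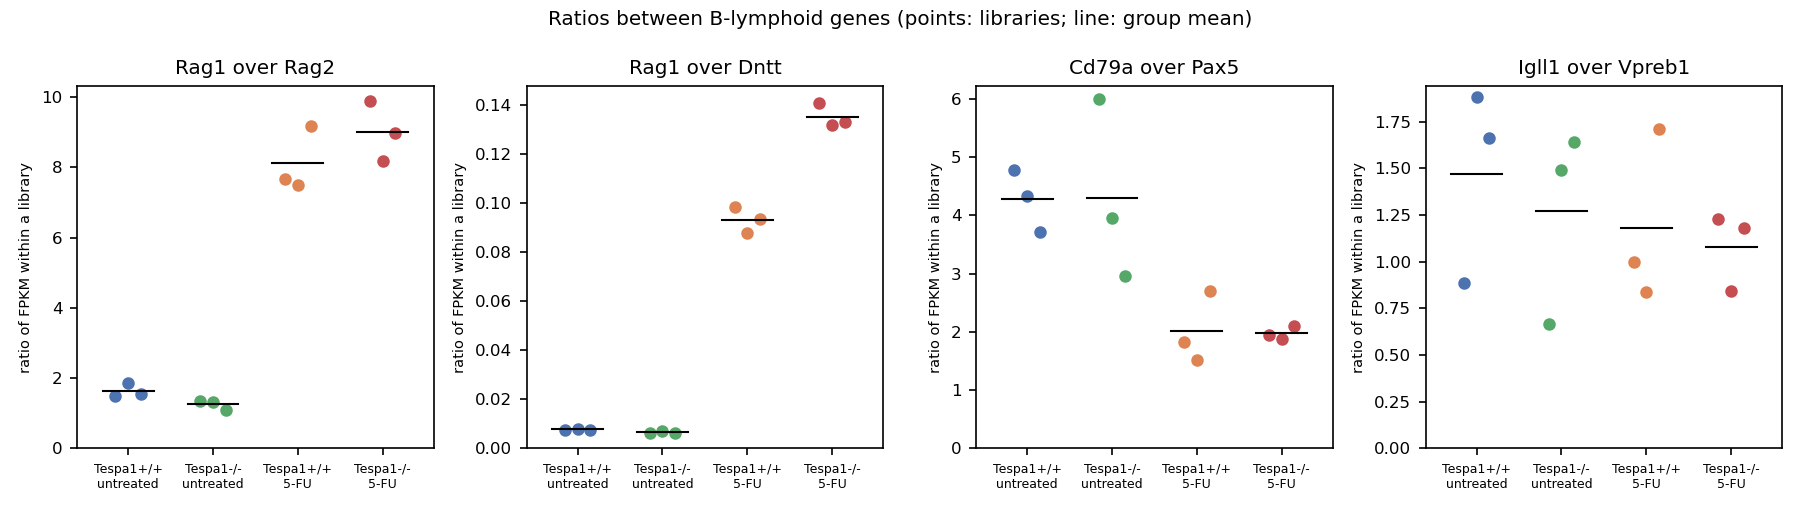
Ratio of FPKM of 4 pairs of genes within each library; points are libraries, lines are means of 3, and axes are linear from 0. Rag1 over Rag2 and Rag1 over Dntt are higher in all treated libraries, Cd79a over Pax5 is lower, and Igll1 over Vpreb1 is spread alike in the 4 groups.

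Other genes of the pathway, in lists compiled from general knowledge, moved in part with the members. The shares of all genes called, higher and lower, were 3.77% and 4.18% with 5-FU in Tespa1+/+ and 10.7% and 8.64% in Tespa1-/-. Of 15 further B-cell regulators, 4 were called higher and 2 lower after 5-FU in Tespa1+/+, and 8 and 4 in Tespa1-/-. Pou2af1, a coactivator of B-cell genes, rose in both (log2 2.01 ± 0.17 and 3.34 ± 0.14), as did Spib (1.91 ± 0.38 and 3.31 ± 0.35), whereas Ikzf3 rose in Tespa1-/- (3.46 ± 0.24) and stood there at a mean of 17.3 CPM against 0.910 CPM in Tespa1+/+ after 5-FU. Of 15 other genes of pre-B cell receptor and B cell receptor signalling, 5 rose and 3 fell in Tespa1+/+, and 8 rose and 1 fell in Tespa1-/-. Vpreb3 went up by log2 2.90 ± 0.26 and 4.27 ± 0.25. Cd22 rose in Tespa1-/- (3.18 ± 0.68). The 12 other genes of V(D)J recombination and end joining, which most cells use for repair, gave 0 calls in Tespa1+/+ by edgeR, where 3 were higher and none lower before adjustment at p below 0.05, and 2 higher (Polm and Hmgb2) and 1 lower (Atm) in Tespa1-/-. Of the genes of interleukin-7 signalling, 1 of 9 tested rose and 1 fell in Tespa1+/+, namely Stat5a (log2 0.42 ± 0.09) and Bcl2 (-0.33 ± 0.07), and 1 of 10 rose and 2 fell in Tespa1-/-. The counts of these last 2 lists in Tespa1-/- are near those shares, and nothing is read from them.

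Lymphoid-primed progenitor genes went the other way, as Dntt did. After 5-FU 0 of 10 were called higher by edgeR (0 also at an unadjusted p below 0.05) and 6 lower in Tespa1+/+, and 1 higher and 8 lower in Tespa1-/-. Ccr9 fell by 2.15 ± 0.29 on the log2 scale and Satb1 by 1.12 ± 0.07 in Tespa1+/+, and Flt3 fell by 0.96 ± 0.04 in Tespa1+/+ and by 1.55 ± 0.04 in Tespa1-/-. The summed level of this list was 1813 to 1945 CPM in untreated Tespa1+/+, 1553 to 1566 CPM in untreated Tespa1-/-, 1098 to 1134 CPM in Tespa1+/+ after 5-FU and 759 to 766 CPM in Tespa1-/- after 5-FU, the same order of groups as Dntt. The summed levels of the members, of this list and of markers of other cells are shown side by side in the plot of marker sums.

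**Figure D5:**
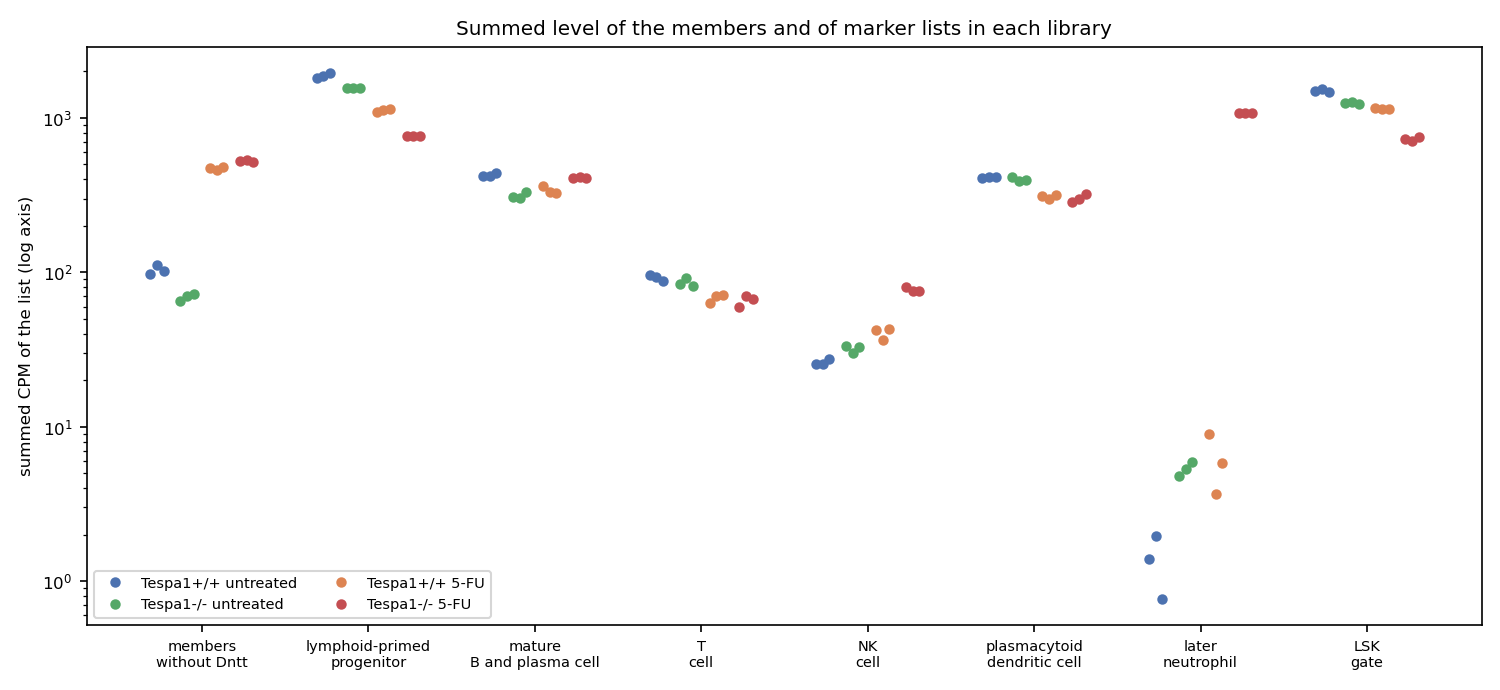
Summed level in CPM (log axis) of the 9 members other than Dntt and of 7 marker lists in each of the 12 libraries, coloured by group. The members rise with 5-FU in both genotypes, the lymphoid-primed list falls, and the later neutrophil list is near 1078 CPM in Tespa1-/- after 5-FU and at most 8.98 CPM elsewhere.

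Between genotypes in untreated LSKs, 1.64% of all genes were called higher and 3.59% lower in Tespa1-/-. Of the 10 lymphoid-primed genes 3 were lower there, namely Flt3 (log2 -0.30 ± 0.03), Notch1 (-0.36 ± 0.05) and Cnn3 (-0.48 ± 0.09), and 0 were higher by edgeR or at an unadjusted p below 0.05. In the same comparison 0 genes of the 4 lists of B-cell genes were called higher by edgeR, with 1 in each list at an unadjusted p below 0.05, and those lower were Foxo1 (log2 -0.75 ± 0.14), which acts upstream of the recombination genes, Il2rg (-0.53 ± 0.10), Jak1 (-0.23 ± 0.05), Pik3ap1 (-0.73 ± 0.07) and Cd81 (-0.36 ± 0.08). After 5-FU the shares of all genes were 7.34% and 5.78%. The B-cell regulators had 4 of 15 higher and 2 lower in Tespa1-/-, with Ikzf3 (4.24 ± 0.42) and Gfi1 (1.27 ± 0.21) the largest. Of the receptor signalling genes 2 were higher, among them Cd22 (2.38 ± 0.35). Markers of later neutrophils were also high in Tespa1-/- after 5-FU, and the part of such cells in these differences was not tested. Of the 10 genes of interleukin-7 signalling, 0 were higher by edgeR or at an unadjusted p below 0.05, and 3 were lower, namely Bcl2 (-0.58 ± 0.07), Il2rg (-0.49 ± 0.08) and Jak3 (-0.45 ± 0.08), while 1 of the 12 V(D)J and end-joining genes was higher, Hmgb2 (0.53 ± 0.05), and 0 were lower (3 at an unadjusted p below 0.05). Of the 10 lymphoid-primed genes 6 were lower after 5-FU in Tespa1-/- than in Tespa1+/+, among them Flt3 (-0.89 ± 0.05), and 1, Gpr183 (1.33 ± 0.32), was higher. Of 13 mature B and plasma cell genes, 9 were tested in untreated LSKs and 4 were lower in Tespa1-/-, among them Igkc (-1.18 ± 0.11) and Jchain (-1.27 ± 0.26), and after 5-FU 5 of 11 were higher, among them Igkc (1.64 ± 0.14). The summed level of that list was 421 to 438, 303 to 331, 327 to 361 and 407 to 415 CPM in untreated Tespa1+/+, untreated Tespa1-/-, treated Tespa1+/+ and treated Tespa1-/-. In Tespa1+/+ it was thus lower after 5-FU, where the 9 members other than Dntt were higher.

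Markers of other lymphoid cells differed in how they moved: the T cell and plasmacytoid dendritic cell sums were lower after 5-FU in both genotypes, and the NK cell sum was higher in both, as was the sum of the 9 members other than Dntt. The summed level of 13 T cell genes was 88.0 to 96.3 and 81.4 to 92.5 CPM in untreated Tespa1+/+ and Tespa1-/-, and 63.0 to 71.4 and 59.3 to 70.3 CPM after 5-FU, and Lck, Cd28 and Lat made up most of it. Of the 8 T cell genes tested for 5-FU in Tespa1+/+, 2 were called higher, Tcf7 (log2 1.14 ± 0.26) and Gata3 (1.25 ± 0.24), and 2 lower. In Tespa1-/- 2 of 12 were called higher, Cd2, at 0.133 to 0.220 CPM untreated and 2.88 to 3.01 CPM after 5-FU, and Cd3e, at 0 and then 0.630 to 1.38 CPM, and 3 lower. The sum of 7 NK cell genes was 25.3 to 27.5, 30.1 to 33.4, 36.5 to 42.7 and 75.9 to 80.6 CPM in untreated Tespa1+/+, untreated Tespa1-/-, treated Tespa1+/+ and treated Tespa1-/-. Nkg7 made up most of that sum, with means of 23.3, 26.9, 32.8 and 51.1 CPM in the same order. With 5-FU 6 of the 7 were called higher in Tespa1-/-, against 0 of the 4 tested in Tespa1+/+ by edgeR, where 3 were higher at an unadjusted p below 0.05. For 8 genes of plasmacytoid dendritic cells, which also use some B-lymphoid genes, the sum was 409 to 417, 391 to 415, 297 to 317 and 287 to 322 CPM in the same order of groups, carried mostly by Irf8 and Runx2, which other cells also express. Siglech, a surface marker of these cells, stood at 0.328 to 0.678, 0.571 to 0.754, 0 to 0.154 and 1.69 to 3.30 CPM, and was called higher in Tespa1-/- than in Tespa1+/+ after 5-FU (adjusted p = 0.00666 in edgeR). The part of any of these cells in the members' levels was not tested.

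The genes whose pattern was most like that of the members over the 12 libraries were Blnk, Vpreb3, Gm12057, Cecr2 and Pou2af1. Likeness was the Pearson correlation of log2(CPM + 1) with the mean standardised profile of the 10 members, among 18677 other genes that passed the filter, and it was 0.995, 0.989, 0.986, 0.986 and 0.979 in that order. Treated and untreated libraries form separate sets and carry most of such a value, which is a description of these 12 libraries. Blnk, which encodes the adaptor of the pre-B cell receptor, had means of 18.3, 11.9, 54.5 and 58.6 CPM in untreated Tespa1+/+, untreated Tespa1-/-, treated Tespa1+/+ and treated Tespa1-/-. Among the members the same measure ran from 0.853 for Il7r to 0.995 for Ebf1, with -0.890 for Dntt, and each member is part of the profile it was set against.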

How the data were processed

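LSK libraries from poly-A RNA were prepared by the authors with a stranded kit and sequenced paired-end. The authors deposited a table with unnormalized counts and FPKM values per gene for each library. Both columns imply 1 length per gene, equal among libraries to within a relative 4.3e-06, so the FPKM were made from these counts. The submitters' processing notes name CASAVA 1.8, HISAT2, StringTie, edgeR and GRCm38, while how reads were counted, and whether strand was used, is not given in the sources used here. Groups came from the labels of the libraries, and dose, day and age from the methods of the study. RNA-seq after irradiation was not analysed here.

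Counts were filtered with filterByExpr (minimum count 10), scaled with TMM and tested in R 4.3.3 with edgeR 4.0.16 (glmQLFit and glmQLFTest), with only the compared groups in the fit and all 12 libraries for the interaction. P-values were adjusted by the Benjamini-Hochberg method over all genes tested, and an adjusted p below 0.05 was a call. Errors of log2 fold changes are standard errors, and CPM used TMM factors over the 12 libraries (0.97 to 1.03). Folds are ratios of mean CPM. Library totals of 22118154 to 28275079 counts put the limit of 3 counts at 0.106 to 0.136 CPM, for counting error only. Single ratios were compared with two-sided exact permutation tests. The scripts were tested on simulated data. Promoter windows were the 250 bases before each start in RefSeq (GRCm38.p6), in which all 10 members were found.

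The members and the gene lists were chosen with earlier results of these data known. All members are named. Of other genes, the 5 most correlated with the members were named. Vpreb2, the defining marker genes and Tespa1 were added as checks after their values were seen. Further names from a list were taken from up to 3 called genes per comparison with the largest absolute log2 fold change and a mean of at least 1 CPM. Not all genes that this rule picks are named. A gene that this rule would name is not reported here. Alternatives were DESeq2 1.42.0, RLE factors, library totals, no filter, a joint fit of the 4 groups, a replicate block, a minimum of 10 counts in each library, omission of single libraries, the thresholds of the study (unadjusted P below 0.05 and fold above 1.5), an adjusted p with the same fold, and a pseudocount of 0.1 for likeness.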

Additional observations from a re-analysis of the deposited data

Results flagged for a closer look

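The response to 5-FU differed between the genotypes for 5 of the 10 members, by edgeR's test of the interaction over the 12 libraries, 4 of them with a positive and 1 with a negative difference, against 3.02% and 1.99% of 18696 genes. The log2 response in Tespa1-/- exceeded that in Tespa1+/+ by 1.46 for Cd79a, 1.39 for Pax5, 0.75 for Ebf1 and 0.58 for Rag1. For Dntt the difference was -0.19, a further fall in Tespa1-/- whose call held in 3 of the 12 fits without 1 library. Groups of 3 libraries are too small for a test of single outlying samples.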

How the results depend on the processing

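The counts of members called after 5-FU, 8 higher and 1 lower in each genotype, stayed within 1.5 times under every alternative run. In untreated LSKs the 4 members called lower in Tespa1-/- became 2 with the replicate block and 1 to 4 when 1 library was left out. After 5-FU, the 1 called higher became 0 with the replicate block, with all 12 libraries in one fit and under both fold thresholds, and 0 to 1 without 1 library, and the 1 called lower became 0 under both fold thresholds. The 1 negative interaction became 0 without a filter, with the replicate block and under both fold thresholds, and 0 to 1 without 1 library. Same-numbered libraries deviated together by correlations of -0.0568 to 0.0255, so the numbers did not pair them and the block is given only here.

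Of 700 fold changes of single members under an alternative, 632 kept direction and call, 45 lost the call, 8 gained it and 15 changed sign. All 15 belong to differences that were never called (adjusted p at least 0.769). They are the genotype difference of Rag2 in untreated LSKs (-0.069 to 0.0503 without 1 library), that of Vpreb1 (-0.206 to 0.268), that of Rag2 after 5-FU (-0.0813 to 0.113, and -0.0088 with library totals), the interaction of Rag2 (-0.0823 to 0.112, and -0.00628 with library totals) and that of Il7r (-0.189 to 0.147). The causes were not tested. Of 40 levels 4 moved by more than 1 SD with library totals, by at most 2.62%. The 5 genes most like the members were the same with a pseudocount of 0.1. Over all genes, calls between untreated genotypes ran from 338 to 808 without 1 library against 892, and 454 with the replicate block and 1427 with DESeq2. In the other comparisons the counts ran from 1519 to 2985 against 2261 between genotypes after 5-FU, 783 to 2113 against 1352 for 5-FU in Tespa1+/+, 2259 to 3871 against 3336 in Tespa1-/- and 573 to 1534 against 936 for the interaction. With 3 libraries a group, differences of low genes such as Vpreb1 and Igll1 were measured with wide intervals.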
